A study of Mus musculus with 8 samples.

Results

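The core circadian clock genes Per1, Per2, Per3, Cry1, Cry2, Arntl, Clock, Nr1d1, Dbp and Bhlhe41 were followed as 10 rows, chosen by symbol, of the 24421 gene rows in each count table. All 10 were in the tables and all 10 passed the filter on low counts that left 15438 genes for testing. The libraries came from C57BL/6 mice in 2 groups of 4. The KO mice had the genotype Otp-Cre; Cicflox/flox; ROSAfsTRAP and the Control mice Otp-Cre; ROSAfsTRAP, so both groups carried the Cre driver and the ribosome tag, and the floxed Cic alleles were in KO alone. Otp-Cre acts in cells with a history of Otp expression, a lineage found in parts of the hypothalamus and the medial amygdala. These regions were dissected together, and the RNA bound to the tagged ribosomes was purified (TRAP) and sequenced. The labels give no age, sex, time of day or light schedule for any mouse, and they do not say whether each library came from 1 animal. The p-values therefore measure the spread between these libraries.

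In mammals the clock is a transcriptional feedback loop found in most cells. The activators CLOCK and ARNTL (BMAL1) bind E-boxes and switch on the Per and Cry genes, whose proteins return to the nucleus and inhibit the activators. A second loop runs through the nuclear receptors NR1D1 (REV-ERB alpha) and the RORs, which repress and activate Arntl through ROR elements, and DBP and its relatives drive further genes through D-boxes. The master clock of the mouse lies in the suprachiasmatic nucleus of the hypothalamus, and levels of most of these transcripts depend on the time of day. The comparison of KO with Control asks how ribosome-bound clock transcripts differ when Cic, which encodes the transcriptional repressor Capicua, is deleted in this lineage.

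The libraries held 33223878 to 57300362 counts in genes. Cic itself stood at 34.5 to 59.3 in the KO libraries, all below the 72.4 to 103 of Control, and averaged 46.7% of the Control level (44.0 ± 11.04 against 94.2 ± 14.6 CPM, read counts relative to the library total, mean ± SD, n = 4 each; log2 fold change -1.10 with SE 0.21, edgeR adjusted p = 0.00220). Of 6 transcription factors of the Otp lineage 6 had a positive fold change (median 0.47), as did 8310 of the 15438 genes tested, and 0 passed the test. At an unadjusted edgeR p of 0.05, 2 of the 6 passed, against 10.6% of all genes. Nhlh2 alone of the 6 was separated (17.4 to 22.1 in KO against 12.8 to 16.7 CPM in Control), where 3.01% of all genes were separated upward. The lineage marker Otp was at 2.28 to 8.55 CPM and Sim1 at 11.2 to 31.6 CPM over the 8 libraries. By contrast, the oligodendrocyte markers were plentiful (12 genes, 1740 to 3209 CPM in sum in KO and 2741 to 3513 in Control). All 12 had a negative fold change, as did 7128 of the 15438 genes tested. Only 1 of them, Cldn11, was past the threshold in the fit reported, where 0.0648% of all genes passed downward. Among the 16 alternative fits Cldn11 passed in 9, and Mag and Mal in 1 each. In 4 of the 12 every KO library was below every Control library, against 2.91% of all genes. The summed astrocyte markers covered nearly the same range in both groups (8 genes, 1225 to 1677 CPM in KO against 1269 to 1674 in Control), with 3 positive, 5 negative and 0 past the threshold. Of these Aldh1l1 was lower in all KO libraries (2.65 to 7.69 against 7.95 to 10.2 CPM, log2 fold change -0.58, edgeR adjusted p = 0.438). Endothelial and mural markers were low (9 genes, 8.66 to 39.3 CPM in sum over all libraries) and so were microglial ones (10 genes, 24.0 to 68.4 CPM). Transcripts typical of other cells were thus present in both groups, and their part in the values below was not tested. In such samples fewer cells of a type, less RNA per cell and less untagged RNA carried through the purification cannot be told apart.

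None of the 10 clock genes passed the test (edgeR quasi-likelihood, Benjamini-Hochberg adjusted p of 0.05 over all 15438 genes), where 0.259% of all genes did (0.194% higher and 0.0648% lower in KO). At an unadjusted p of 0.05, 3 of the 10 passed, Per2, Cry1 and Arntl, all higher in KO, against 10.6% of all genes (6.06% higher and 4.53% lower). The same 3 were the members whose KO libraries all lay above all Control libraries, and 3.01% of all genes were separated in that direction (5.93% in either). The fold changes of the 10 ran from -0.19 to 0.69 on the log2 scale, 7 positive and 3 negative, with a median of 0.14 against 0.02 over all genes tested.

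**Figure D1:**
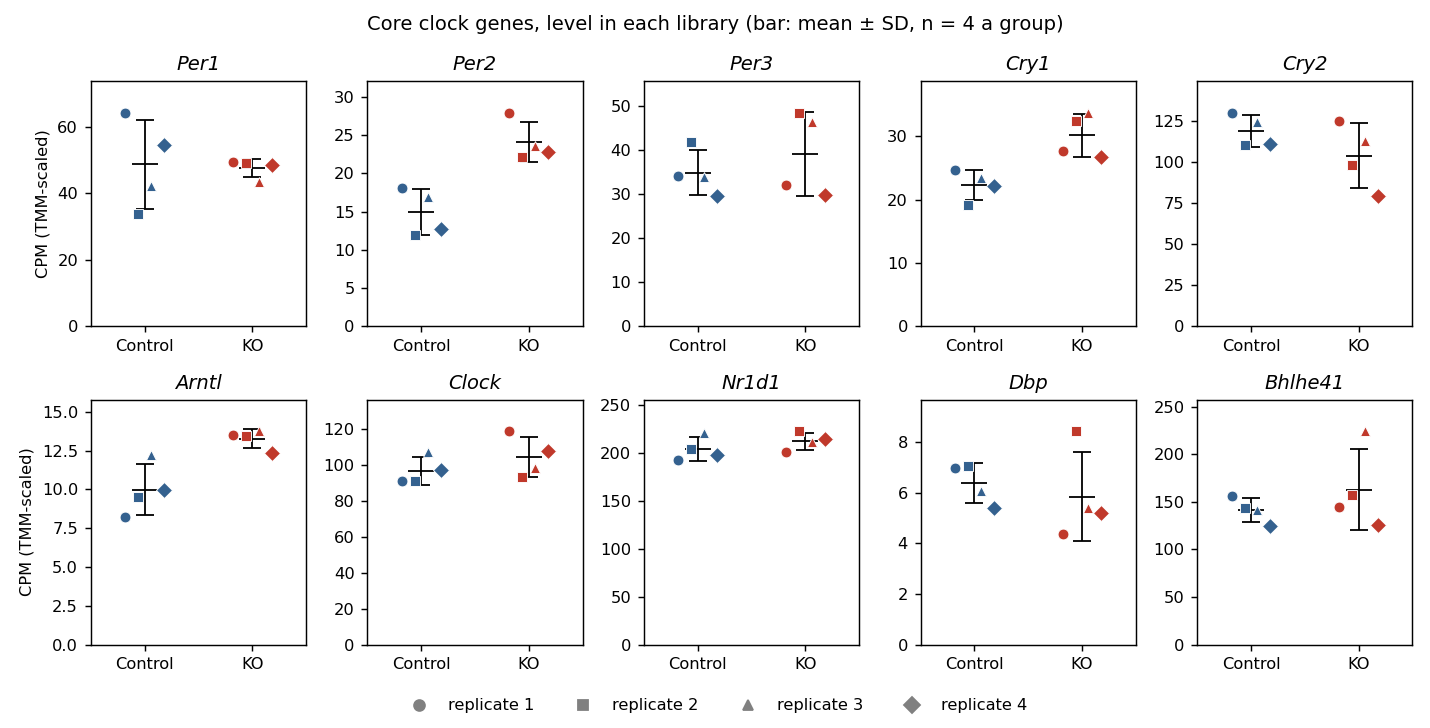
Level of each core clock gene in CPM (y axes from 0, TMM-scaled) in the 4 Control and 4 KO libraries; each symbol is a library, and the bars give the mean and SD of a group. Per2, Cry1 and Arntl have all KO libraries above all Control libraries, and the groups overlap for the other 7.

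Per1, Per2 and Per3 encode the PERIOD proteins, the repressors that accumulate through the cycle and, in complex with the cryptochromes, stop CLOCK and ARNTL. On GRCm38, Per1 (ENSMUSG00000020893.17) lies on chromosome 11 from 69095217 to 69109960, Per2 (ENSMUSG00000055866.9) on chromosome 1 from 91415982 to 91459324 and Per3 (ENSMUSG00000028957.12) on chromosome 4 from 151003652 to 151044665. Per2 measured 27.9, 22.2, 23.6 and 22.8 CPM in KO replicates 1 to 4 and 18.1, 11.996, 16.9 and 12.8 CPM in Control replicates 1 to 4. Every KO library was above every Control library, the lowest of KO being 1.23 times the highest of Control. The means were 24.1 ± 2.59 and 14.95 ± 3.02 CPM (n = 4 each), a 1.61-fold difference (log2 fold change 0.69 with SE 0.16, edgeR adjusted p = 0.0875; exact two-sided permutation p = 0.0286, the smallest that 4 against 4 allows). Per2 ranked at position 68 of the 15438 genes by p. It did not pass in any of the 8 fits that left out 1 library (edgeR adjusted p = 0.0707 to 0.349, log2 fold change 0.60 to 0.80), but passed with the DESeq2 test (adjusted p = 0.00934, log2 fold change 0.69).

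Per1, which light and cyclic AMP induce, measured 49.3, 49.1, 43.45 and 48.5 CPM in KO and 64.1, 33.6, 42.2 and 54.4 CPM in Control. The KO libraries sat close together inside the wide range of the Control ones. The log2 fold change was -0.03 (SE 0.21, edgeR adjusted p = 0.968), with a limma voom 95% interval from -0.34 to 0.34. Per3, the least essential of the 3 for rhythms in the mouse, measured 32.1, 48.5, 46.3 and 29.9 CPM in KO and 34.1, 41.9, 34.0 and 29.5 CPM in Control. Its KO libraries fell into a high pair (replicates 2 and 3) and a low pair that overlapped Control (0.17, SE 0.21, edgeR adjusted p = 0.786; 95% interval from -0.19 to 0.49).

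Promoter windows (300 bases, 250 before the start site and 50 from it on, RefSeq on GRCm38.p6) were available for 9 of the 10, all but Per2, and were searched on both strands for the E-box CACGTG, the variant CACGTT (which reads AACGTG on the other strand), the D-box TTATGTAA or TTACGTAA, the ROR core TAGGTCA or its other form TGGGTCA, the CRE TGACGTCA and the CIC octamers TGAATGAA, TGAATGGA, TCAATGAA and TCAATGGA. No pair of these matches shared bases in a window of a member. Of 27025 genes with a window, 8.09% held the E-box, 5.44% the variant, 1.23% a D-box, 7.35% a ROR core, 2.03% the CRE and 4.45% a CIC octamer. Of the 9 clock genes, 3 held the E-box (Per1, Cry1 and Bhlhe41), 3 the variant (Cry1, Cry2 and Nr1d1), 1 a D-box (Per3), 1 a ROR core (Arntl), 0 the CRE and 0 a CIC octamer. A match is only a run of letters, and a window without one says nothing of the factor. The stretches of Per1 (chr11:69098753-69098832, plus strand) and Per3 (chr4:151044771-151044890, minus strand) show the matches in these windows, an E-box and a pair of D-boxes, in capitals.
Per1: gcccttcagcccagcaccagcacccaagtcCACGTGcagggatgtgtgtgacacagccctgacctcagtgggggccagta
Per3: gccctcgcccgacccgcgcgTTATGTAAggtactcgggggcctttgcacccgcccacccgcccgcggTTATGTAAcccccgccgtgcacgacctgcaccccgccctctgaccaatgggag
The E-box of Per1 began 166 bases before a start site that lies inside the annotated gene, and the D-boxes of Per3 began 205 and 158 bases before theirs.

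Cry1 and Cry2 encode the cryptochromes, the stronger repressors of the loop. Cry1 (ENSMUSG00000020038.10) lies on chromosome 10 from 85131700 to 85185064 and Cry2 (ENSMUSG00000068742.11) on chromosome 2 from 92403646 to 92434043. Cry1 measured 27.7, 32.4, 33.7 and 26.8 CPM in KO and 24.6, 19.2, 23.5 and 22.1 CPM in Control. The groups did not overlap, although the lowest KO library was only 1.09 times the highest Control one. The means were 30.1 ± 3.41 and 22.3 ± 2.36 CPM (n = 4 each; log2 fold change 0.43 with SE 0.11, edgeR adjusted p = 0.235; exact permutation p = 0.0286). Cry2 measured 125, 97.9, 113 and 79.5 CPM in KO and 129.8, 110.1, 124 and 111 CPM in Control. KO replicates 2 and 4 were below all Control libraries and the other 2 were inside the Control range (-0.19, SE 0.15, edgeR adjusted p = 0.676; 95% interval from -0.49 to 0.07). A noncoding transcript on the opposite strand, D930015M05Rik, shares 3.43% of the exon bases of Cry2.

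Because the fold changes of Cry1 and Cry2 had opposite signs, their read counts were also set against each other inside each library, which removes any scaling between libraries. The ratio of Cry1 to Cry2 was 0.221, 0.331, 0.299 and 0.337 in KO and 0.190, 0.174, 0.189 and 0.200 in Control. Every KO ratio was above every Control ratio, and the Control ratios lay close together (0.297 ± 0.0533 against 0.188 ± 0.0105, n = 4 each). The ratio of Per2 to Per1 behaved alike, at 0.567, 0.453, 0.543 and 0.470 in KO and 0.283, 0.357, 0.401 and 0.235 in Control, with no overlap (0.508 ± 0.0555 against 0.319 ± 0.0742). Per3 to Per1 overlapped fully, its KO ratios (0.616 to 1.07) lying inside the Control range (0.533 to 1.25). These pairs were chosen with the values of the genes in view, so the ratios are a description and carry no test.

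**Figure D2:**
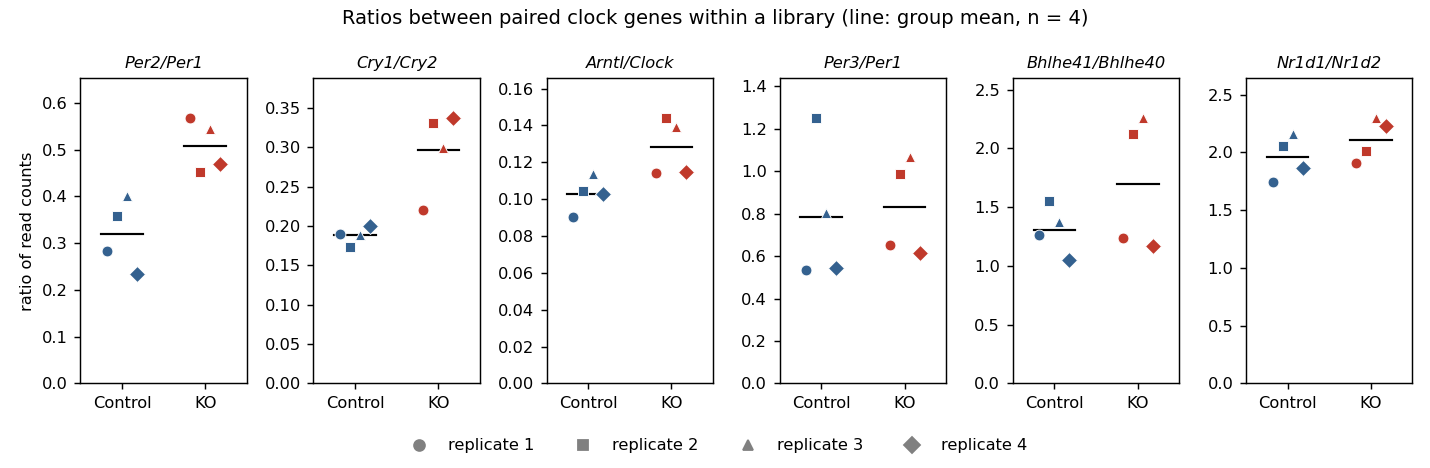
Ratio of the read counts of paired clock genes inside each library (y axes from 0); symbols are libraries and lines are group means. Per2/Per1, Cry1/Cry2 and Arntl/Clock have all 4 KO ratios above all 4 Control ratios, and the other 3 pairs drawn overlap. Dbp/Arntl, Npas2/Clock and Nr1d1/Thra were also computed, are not drawn, and overlap. The numerators of the separated pairs are the members whose CPM were already separated.

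The proximal promoters of the cryptochrome pair are shown for the matches they hold, and their bearing on the levels was not tested. Cry1 (chr10:85185065-85185174, minus strand) holds both an E-box variant and an E-box, 79 and 60 bases before the start site, and Cry2 (chr2:92434150-92434269, minus strand) holds the variant alone, 166 bases before it. Capitals mark the matches.
Cry1: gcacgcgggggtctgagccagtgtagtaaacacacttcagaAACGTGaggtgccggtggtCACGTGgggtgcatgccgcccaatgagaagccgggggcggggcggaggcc
Cry2: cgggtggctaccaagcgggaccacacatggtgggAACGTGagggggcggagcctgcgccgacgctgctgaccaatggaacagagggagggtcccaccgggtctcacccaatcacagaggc

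Arntl and Clock encode the partners of the activator. Arntl (ENSMUSG00000055116.8) lies on chromosome 7 from 113207465 to 113314126, 87.9 Mb from Cic on the same chromosome, and Clock (ENSMUSG00000029238.11) on chromosome 5 from 76209868 to 76304792. Arntl, whose loss alone abolishes rhythms, measured 13.5, 13.4, 13.7 and 12.4 CPM in KO and 8.23, 9.53, 12.2 and 9.98 CPM in Control. The KO libraries were tightly grouped and lay above all Control ones, but Control replicate 3 came within a factor of 1.01 of KO replicate 4. Scaled by total counts alone, these 2 libraries crossed and the Arntl groups overlapped. The means were 13.3 ± 0.618 and 9.99 ± 1.65 CPM (n = 4 each; log2 fold change 0.41 with SE 0.12, edgeR adjusted p = 0.384; exact permutation p = 0.0286). Clock measured 119, 93.3, 98.5 and 108 CPM in KO and 91.1, 91.2, 107 and 97.0 CPM in Control, and the groups overlapped (0.11, SE 0.09, edgeR adjusted p = 0.808; 95% interval from -0.13 to 0.35). The count ratio of Arntl to Clock was 0.114, 0.144, 0.139 and 0.115 in KO and 0.0904, 0.104, 0.114 and 0.103 in Control, so that KO replicate 1 and Control replicate 3 all but met. RefSeq gives 2 start sites for Arntl, and from the downstream one a ROR core, the element through which NR1D1 and the RORs act on this gene, begins at base 31 (chr7:113207531-113207557, plus strand), in capitals.
Arntl: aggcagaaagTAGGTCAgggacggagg

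Nr1d1 and Bhlhe41 encode repressors, and Dbp an activator, that are driven by CLOCK and ARNTL. Nr1d1 (ENSMUSG00000020889.11, chromosome 11 from 98767932 to 98775333) measured 200.4, 222, 211 and 214 CPM in KO and 193, 204, 220.3 and 197 CPM in Control. It was the steadiest member in Control (coefficient of variation 5.98%) and also in KO (4.19%), and the groups overlapped (0.06, SE 0.05, edgeR adjusted p = 0.904; 95% interval from -0.16 to 0.28). Of its exon bases 9.67% are shared with Thra on the opposite strand, and reads there cannot be assigned to either gene without strand. Thra measured 244 ± 28.0 CPM in KO and 260 ± 25.6 in Control (-0.09, edgeR adjusted p = 0.858).

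Bhlhe41 (DEC2, ENSMUSG00000030256.11, chromosome 6 from 145858243 to 145865558) competes for E-boxes. It measured 144.8, 157, 224.03 and 125 CPM in KO and 156, 143, 142 and 125 CPM in Control. KO replicate 3 stood above the other 7 libraries, which overlapped (0.21, SE 0.19, edgeR adjusted p = 0.696; 95% interval from -0.13 to 0.48), and the log2 fold change was 0.01 without it. A transcript of unknown coding status on the opposite strand, Gm43909, shares 13.7% of the exon bases of Bhlhe41. Dbp (ENSMUSG00000059824.12, chromosome 7 from 45705088 to 45710203, 20.4 Mb from Cic) measured 4.39, 8.43, 5.39 and 5.21 CPM in KO and 6.98, 7.08, 6.06 and 5.42 CPM in Control, from 169 to 408 reads a library. KO replicate 2 was the highest of all 8, KO replicate 1 the lowest, and the 3 KO libraries other than replicate 2 lay below all of Control (-0.13, SE 0.22, edgeR adjusted p = 0.905; 95% interval from -0.66 to 0.32). KO replicate 3 (5.394 CPM) and Control replicate 4 (5.416 CPM) all but met. Sphk2 on the opposite strand shares 29.3% of the exon bases of Dbp, the largest such share among the 10 members. Sphk2 measured 25.9 ± 2.32 CPM in KO against 28.6 ± 3.10 in Control (-0.14, edgeR adjusted p = 0.782), and how reads of the shared stretch were assigned was not tested.

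Near their start sites Bhlhe41 holds an E-box (chr6:145865559-145865603, minus strand), Nr1d1 the variant (chr11:98775378-98775445, minus strand) and Ciart, a repressor of CLOCK and ARNTL outside the 10, a set of 3 E-boxes (chr3:95882255-95882374, minus strand). They are printed to show where the E-box or its variant lies in these genes of the loop, with the matches in capitals.
Bhlhe41: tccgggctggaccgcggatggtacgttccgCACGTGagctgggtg
Nr1d1: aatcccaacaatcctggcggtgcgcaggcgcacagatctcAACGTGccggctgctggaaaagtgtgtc
Ciart: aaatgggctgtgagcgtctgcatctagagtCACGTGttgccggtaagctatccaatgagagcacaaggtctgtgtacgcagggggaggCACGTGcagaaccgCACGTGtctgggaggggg
These 3 genes overlapped between the groups, with Ciart at 7.58 to 11.01 in KO against 9.36 to 13.6 CPM in Control.

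Levels were compared between genes as CPM per kb of exon (GENCODE M21 protein-coding exons, which need not be the annotation the authors counted on). In Control, Nr1d1 was highest at 74.8 ± 4.48 CPM per kb, followed by Cry2 (27.3 ± 2.27), Bhlhe41 (22.6 ± 2.06), Clock (9.74 ± 0.767), Per1 (8.64 ± 2.38), Cry1 (7.39 ± 0.778), Per3 (5.82 ± 0.859), Dbp (3.48 ± 0.431), Arntl (3.23 ± 0.535) and Per2 (2.56 ± 0.517, n = 4 each). Of the neighbours in this order, Clock and Per1, Per1 and Cry1, Cry1 and Per3, Dbp and Arntl, and Arntl and Per2 overlapped between libraries, and the other 4 neighbouring pairs did not. In KO the order was Nr1d1 (77.9 ± 3.27), Bhlhe41 (26.0 ± 6.84), Cry2 (23.9 ± 4.54), Clock (10.53 ± 1.12), Cry1 (9.96 ± 1.13), Per1 (8.46 ± 0.492), Per3 (6.53 ± 1.59), Arntl (4.29 ± 0.200), Per2 (4.14 ± 0.445) and Dbp (3.19 ± 0.964). Here Bhlhe41 and Cry2, Clock and Cry1, Per1 and Per3, Arntl and Per2, and Per2 and Dbp overlapped, and the other 4 neighbouring pairs did not. The lowest mean was that of Dbp in KO and of Per2 in Control, but neither was apart from its neighbour.

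The libraries of a group differed in their clock pattern. In KO, replicate 2 had the highest Dbp and the highest Per3 and the lowest Clock. In Control, replicate 2 had the highest Dbp and the highest Per3, and its Clock (91.2 CPM) was next to the lowest (91.1 CPM in replicate 1). That library also had the lowest Per1, Per2 and Cry1 of Control. In KO, replicate 2 had the lowest Per2 as well, but its Per1 (49.1 CPM) and Cry1 (32.4 CPM) were next to the highest. Nothing in the labels pairs these libraries.

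**Figure D3:**
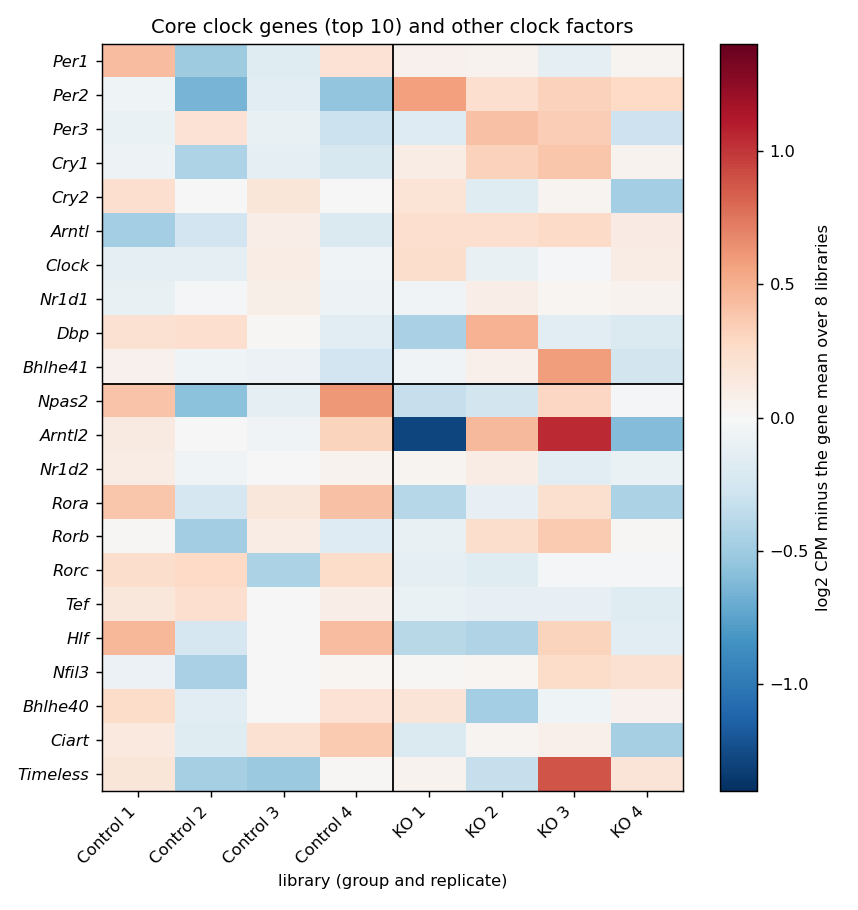
Log2 CPM of each gene minus its mean over the 8 libraries (colour scale), for the 10 core clock genes above the line and 12 other clock factors below it, with Control libraries on the left. Per2, Cry1 and Arntl are red in all 4 KO libraries, and Tef is blue in all 4.

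Of the 12 other clock transcription factors and repressors, 0 passed the test, 4 were positive and 8 negative in fold change, and the median was -0.17. The group's fold changes ran from -0.36 to 0.43. Tef, which binds the D-box as Dbp does, was the only one of the 12 without overlap, at 123, 122, 121 and 117 CPM in KO and 146, 155, 132 and 139.5 CPM in Control (-0.25, SE 0.05, edgeR adjusted p = 0.424), where 2.91% of all genes were separated downward. Hlf, the third D-box binder of this family, measured 194 to 321 in KO against 221 to 357 CPM in Control (-0.33, edgeR adjusted p = 0.514). Rora, an activator of Arntl, measured 139 to 219 in KO against 161 to 251 CPM in Control (-0.36, edgeR adjusted p = 0.419), and its relative Rorb, which is abundant in the suprachiasmatic nucleus, 78.7 to 109 CPM and 60.5 to 91.2 CPM (0.26, edgeR adjusted p = 0.538).

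For Npas2, Nr1d2, Bhlhe40 and Ciart the groups overlapped. Npas2, which can replace Clock, measured 13.3 to 20.3 in KO against 11.1 to 25.3 CPM in Control (-0.21, edgeR adjusted p = 0.805). Nr1d2 (REV-ERB beta) lay at 92.1 to 110.2 CPM and 99.2 to 110.2 CPM (-0.05, edgeR adjusted p = 0.925). Bhlhe40 (DEC1) measured 74.1 to 117 CPM and 92.2 to 124 CPM (-0.14, edgeR adjusted p = 0.797). Ciart had a log2 fold change of -0.28 (edgeR adjusted p = 0.663).

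Of 19 kinases, phosphatases and ubiquitin ligases that act on clock proteins, 0 passed, 10 were positive and 9 negative, and the median was 0.01. The casein kinases that phosphorylate PERIOD proteins did not pass, with Csnk1d at -0.05 (edgeR adjusted p = 0.922) and Csnk1e at 0.04 (edgeR adjusted p = 0.944). Among the 19, the catalytic subunits of protein phosphatase 1, Ppp1ca (66.4 to 100.4 in KO against 105 to 124 CPM in Control; -0.38, edgeR adjusted p = 0.294) and Ppp1cc (162 to 196 and 198 to 246 CPM; -0.29, edgeR adjusted p = 0.354), were lower in every KO library without passing, while Ppp1cb was not separated (0.01). No other gene of the 19 was separated, and 2.91% of all genes were separated downward. Gsk3b was at 0.27 (edgeR adjusted p = 0.548).

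Of 10 clock output genes in the tables, 0 passed, 6 were positive and 4 negative, and the median was 0.02. Usp2, a ubiquitin protease whose message cycles in many tissues, measured 24.6, 26.7, 27.1 and 25.5 CPM in KO and 33.3, 32.3, 29.8 and 35.6 CPM in Control, with no overlap (-0.33, SE 0.06, edgeR adjusted p = 0.326). It was the only 1 of the 10 separated, where 2.91% of all genes were separated downward. Cdkn1a, the cell-cycle inhibitor p21, was at 0.59 with overlap (edgeR adjusted p = 0.219), and Ccrn4l, which encodes the rhythmic phosphatase nocturnin, at 0.23 (edgeR adjusted p = 0.566).

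Since the suprachiasmatic nucleus lies in the hypothalamus, its markers were read beside the clock genes. Whether the dissected pieces held the nucleus, or the tagged lineage its neurons, was not tested. Of 13 markers 0 passed, 8 were positive and 5 negative, with a median of 0.22, and their summed level was 569.7 to 717 in KO against 501 to 530.1 CPM in Control. The sum is weighted toward its abundant members Avp (329 ± 108 CPM in KO and 244 ± 21.5 in Control) and Zfhx3 (166 ± 49.5 and 140.1 ± 14.6), each of which overlapped between the groups. Avp, which other hypothalamic neurons also make, measured 216 to 475 in KO against 226 to 271 CPM in Control (0.43, edgeR adjusted p = 0.373). Vip, the peptide of the core of the nucleus, was near the floor at 0.841 to 2.77 CPM and 1.43 to 3.31 CPM (-0.28, edgeR adjusted p = 0.888). Its receptor gene Vipr2 was at 8.66 to 12.8 in KO against 10.1 to 21.6 CPM in Control (-0.73, SE 0.28, edgeR adjusted p = 0.189), and Prokr2, the prokineticin receptor, at 12.3 to 16.3 CPM and 6.61 to 11.99 CPM, without overlap (0.53, SE 0.22, edgeR adjusted p = 0.323). No other marker of the 13 was separated, and 3.01% of all genes were separated upward. The part of neurons of this nucleus in the clock values was not tested.

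Dbp and Arntl, which peak at opposite phases of the known cycle, were used to rank 10985 genes with a mean of at least 5 CPM by Pearson's correlation of log2 CPM over the 8 libraries, as a description with no test. All the values rest on the same 8 libraries, and whether depth enters them was not tested. The genes most like Dbp were Adcy2, Pgrmc2, Zdhhc3, Pttg1ip and Pkd2 (r from 0.93 to 0.97) and those most opposed Dhx15, Serbp1, C2cd5, Zfp667 and Zfp62 (r from -0.97 to -0.94). None of these 10 is on a clock list. Among clock-linked genes Siah2, which encodes a ubiquitin ligase, ranked highest at 38 (r = 0.85) and Csnk1a1, a casein kinase gene, lowest at 10932 (-0.85). Of the transcription factors and repressors, Per3 ranked at 595 (r = 0.61), Tef at 1824 (0.38), Nr1d1 at 2828 (0.25), Per1 at 5977 (-0.07), Arntl at 8464 (-0.33) and Clock at 10876 (-0.80). For Arntl the nearest genes were Brd3, Lrrc55, Cir1, Clasp1 and Cep41 (r from 0.94 to 0.96) and the most opposed Syt9, Mob2, Mgat1, Rnf139 and Ube2g2 (r from -0.96 to -0.94). Cry1 ranked at 554 (r = 0.72), Per2 at 587 (0.72) and Nr1d1 at 637 (0.70), whereas Usp2 stood at 10936 (-0.85) and Tef at 10961 (-0.88). The separation between KO and Control of Arntl, Cry1, Per2, Usp2 and Tef enters these values.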

How the data were processed

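Each library has 1 deposited table of unnormalized counts by gene symbol. The submitters' processing notes name TopHat2 2.0.9, HTSeq, DESeq2 and the build mm10 as what the authors used. Annotation and strand setting: not given in the sources used here. RNA was amplified from a small input without molecular identifiers, per the labels' protocols, so counting error is only part of the error. The tables also hold 92 spike-in entries and 5 counter totals, which did not enter the scaling or the comparison. Spike-in reads were 0.0655, 0.0569, 0.395 and 0.0739% of gene counts in KO replicates 1 to 4. In Control replicates 1 to 4 they were 0.2985, 0.522, 0.401 and 0.327%. Alignments that were not unique made up 69.2 to 81.9% of all entries in KO and 63.3 to 74.1% in Control. The bearing of these shares on the levels was not tested. KO was compared with Control in edgeR 4.0.16 (R 4.3.3) by a robust quasi-likelihood fit over all 8 libraries with no covariate, after TMM scaling and filterByExpr (a count of at least 10, a total of at least 15). CPM are TMM-scaled. SE is that of the difference of mean log2 CPM (prior count 2). The 95% intervals are from limma 3.58.1 (voom). Single genes were also compared by exact two-sided permutation of log2 CPM, whose smallest p is 0.0286. DESeq2 1.42.0, voom, other scalings and filters, each library left out and a replicate block were alternatives. The scripts were tested on simulated counts of 15438 genes. They recovered 23 of 50 genes changed 1.5-fold, 37 of 50 changed 2-fold, 43 of 50 changed 3-fold and 42 of 50 changed 4-fold. The 12 false calls belong to all these sizes together, which were simulated in 1 run. A difference of the size seen for Per2, Cry1 or Arntl can therefore be missed. No library repeats another (chi-square per degree of freedom at least 25.9 over 28 pairs).

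The text names the 10 members and Cic, a fixed set of clock, lineage and marker genes, the 3 genes of smallest p in each list and the 5 most like and unlike Dbp and Arntl; not all are printed, and 1 of them is not reported here. Adcy2 and the other likeness genes follow that rule. Members and lists were chosen with earlier results of these data known. Thra, Sphk2 and Ppp1cb were named for overlap or kinship with named genes.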

Additional observations from a re-analysis of the deposited data

Results flagged for a closer look

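Of 22 sets of 4 libraries (the 10 clock genes and Cic in each group), 2 had a library far from the other 3 by Dixon's criterion, and chance alone gives about 1 in 20. Per1 in KO replicate 3 was 43.45 CPM against 48.5 to 49.3 CPM in the other KO libraries, a small distance beside the Control range of 33.6 to 64.1 CPM. Cic in Control replicate 2 was 72.4 CPM (72.35) against 100.5 to 103 CPM in the other Control libraries; it is the library with the lowest Per1, Per2 and Cry1 of its group.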

How the results depend on the processing

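The number of genes past the threshold was 40 in the fit reported (30 higher and 10 lower). It was 26 with total counts only, 198 with DESeq2 (119 higher and 79 lower), 22 with limma voom and 65 with the replicate block, and 14 to 53 with 1 library left out (26 without KO replicate 2, and 19, 17, 26 and 14 without Control replicates 1, 2, 3 and 4). Of the 10 clock genes, 1 passed with DESeq2 and 1 with the replicate block, in both cases Per2 (log2 fold change 0.69, adjusted p = 0.00934, and 0.71, edgeR adjusted p = 0.0491), and 0 passed in the other 14 alternatives. Per2, Cry1 and Arntl had no overlap under each other scaling and filter, except that Arntl overlapped with total counts only (2 genes apart). Leaving out a library can hardly make separate groups overlap, so it says nothing of their stability, but without KO replicate 2 Dbp was also apart, lower in KO (4 apart). That separation was narrow, as Dbp in KO replicate 3 and Control replicate 4 stood at 5.394 and 5.416 CPM in the fit reported. Per1 lies so near 0 that its sign turned with limma voom (0.000928), with the replicate block (0.008453) and with 1 library left out (-0.18 to 0.13). The other 9 members kept their sign in all 16 alternatives. With 1 library left out Vip ranged from -0.65 to 0.08 (0.08447 without Control replicate 4) and Flt1, an endothelial marker, from -1.32 to 0.45 (0.4492 without Control replicate 1). Nothing in the labels says that replicate numbers pair mice, and libraries of the 2 groups with the same number deviated with correlations of -0.05 to 0.10, and 1 of 4 KO libraries correlated best with its own number.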

Other observations

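Per1 also answers to neuronal activity and to glucocorticoids, and genes of both responses were read in the same libraries. Of 15 cyclic AMP and activity response genes 0 passed, 7 were positive and 8 negative, with a median of -0.07 and 4 at an unadjusted p of 0.05, where 10.6% of all genes were. Egr1, an activity-induced zinc finger factor, measured 69.4 to 104.3 in KO against 80.3 to 164 CPM in Control (log2 fold change -0.56 with SE 0.28, edgeR adjusted p = 0.293). Npas4, which is induced by neuronal activity, was at 1.82 to 8.36 and 0.953 to 2.88 CPM (1.10 with SE 0.58, edgeR adjusted p = 0.342). The log2 fold change of the phosphatase gene Dusp1 was 0.42 (edgeR adjusted p = 0.396). Of 11 glucocorticoid response genes tested 0 passed by edgeR and 0 reached an unadjusted p of 0.05, with 5 positive and 6 negative. Fkbp5, a chaperone induced by corticosterone, was at -0.36 (edgeR adjusted p = 0.558). Mt2 (0.70, edgeR adjusted p = 0.597) and Ddit4 (0.29, edgeR adjusted p = 0.598) had the opposite sign.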
